A study of Mus musculus with 12 samples.

Results

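The genes described here are 38 genes of macroautophagy, the core machinery that builds the autophagosome and the receptors that load it, out of 24346 genes in the deposited tables. They are defined by a list of gene symbols and are grouped here by the known role of each protein. All 38 also passed the filter on low counts, so each was tested. RNA was measured in 12 libraries in 4 groups of 3, made from cells of C57BL/6 mouse midbrain that carried the fluorescent reporter hKO1 and were sorted by FACS. Into the substantia nigra of both sides either saline was injected, or 20 µg of preformed α-synuclein fibrils at 5 µg/µL. The fibrils carried G51D, a substitution found in inherited Parkinson's disease, and cells were collected 7 or 12 weeks after the injection. The labels name neither the promoter that drives hKO1 nor the age of the mice, and do not say whether each replicate is its own animal. The p-values therefore describe only the spread between libraries, which may be technical.

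Macroautophagy encloses cytoplasm in a double membrane and delivers it to the lysosome. The ULK1 kinase complex starts the process, and the class III PI3-kinase complex then makes the lipid PI3P at the site where the membrane forms. ATG9 vesicles, ATG2 lipid transfer proteins and WIPI proteins supply and shape that membrane, and a ubiquitin-like conjugation system attaches ATG8 proteins (the LC3 and GABARAP families) to it. Receptors such as p62 bind both cargo and ATG8 proteins. The pathway is studied in Parkinson's disease because neurons depend on it to clear aggregated protein, α-synuclein among its cargoes. Many of these proteins are also regulated after translation, and transcript levels do not measure the rate of autophagy.

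The depth allowed each member to be measured in nearly every library. Dividing the deposited estimated counts by the step that separates them gave 2506730 to 5533321 assigned fragments per library. Replicate 2 of synuclein at 12 weeks stood apart, with 17409 genes at 1 fragment or more, where the highest library had 21135. This replicate was not a shallow library, with 5022488 assigned fragments, near the top of the range. The sorted material was a mixture by its markers. Summed over each marker list, dopaminergic neuron markers ranged from 604 to 2489 CPM (counts scaled to a common library size by TMM), oligodendrocyte markers from 16760 to 44749 CPM and brain endothelial markers from 7145 to 17437 CPM. Between the treatments the dopaminergic sums overlapped, at 1354 to 2039 CPM in saline and 720 to 2489 in synuclein at 7 weeks and at 604 to 1122 and 633 to 869 CPM at 12 weeks. After synuclein 7 of 8 microglia markers were higher at 7 weeks (median log2 fold 1.16) and 5 of 8 lower at 12 weeks (−0.75), although none passed the adjusted test. Their sums were 72.4 to 174 CPM in saline and 109 to 475 in synuclein at 7 weeks, with 475 in replicate 3, and 72.9 to 155 and 47.4 to 115 CPM at 12 weeks. The microglia marker Tmem119 was at 0 in 4 libraries and P2ry12 in 2. All 6 endothelial markers were lower after synuclein at 7 weeks (median −0.33) and higher at 12 weeks (0.32), none past the test, with overlapping sums. The part of these markers in the synuclein folds of the members was not tested. Member levels are therefore levels in this mixture, in which fewer cells of a type and less RNA per cell cannot be told apart.

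Sequence upstream of the members was examined for the binding site of TFEB and TFE3, the transcription factors best known for driving autophagy and lysosome genes. Both bind the E-box CACGTG, and a longer palindrome around it, GTCACGTGAC, is known as the CLEAR element. The RefSeq promoter windows used (GRCm38.p6, from 250 bases before to 50 bases after each start) covered 32 of the 38 members in 36 windows, and each motif is its own reverse complement, so a search of 1 strand covers both. GTCACGTGAC was in 0 of the 32 members and 0 of their 36 windows, against 0.326% of all 32851 windows. Its core TCACGTGA, which contains the E-box, was in 1 member, Atg3, and 1 of the 36 windows, against 0.974% of all windows. The plain E-box was in 4 members, Atg3, Atg5, Atg7 and Atg14, and 4 of the 36 windows, against 2349 of all 32851 windows (7.15%). These 4 windows are printed because they are the matched members that hold the site. They are read 5′ to 3′ on the strand of the gene, with each CACGTG in capitals. They lie at chr16:45158579-45158878 on the plus strand for Atg3, chr10:44268089-44268388 on the plus strand for Atg5, chr6:114670846-114671145 on the plus strand for Atg7 and chr14:47568385-47568684 on the minus strand for Atg14.
Atg3: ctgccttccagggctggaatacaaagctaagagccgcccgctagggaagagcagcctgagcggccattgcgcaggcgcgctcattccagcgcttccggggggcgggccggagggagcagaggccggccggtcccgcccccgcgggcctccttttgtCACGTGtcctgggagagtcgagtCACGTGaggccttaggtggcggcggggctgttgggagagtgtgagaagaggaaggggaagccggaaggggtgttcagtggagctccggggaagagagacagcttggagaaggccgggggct
Atg5: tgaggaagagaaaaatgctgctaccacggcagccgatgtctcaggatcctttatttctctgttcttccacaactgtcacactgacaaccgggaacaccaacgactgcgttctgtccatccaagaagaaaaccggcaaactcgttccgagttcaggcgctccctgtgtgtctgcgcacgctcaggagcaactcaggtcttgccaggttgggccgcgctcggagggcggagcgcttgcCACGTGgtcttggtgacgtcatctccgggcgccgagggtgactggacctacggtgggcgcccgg
Atg7: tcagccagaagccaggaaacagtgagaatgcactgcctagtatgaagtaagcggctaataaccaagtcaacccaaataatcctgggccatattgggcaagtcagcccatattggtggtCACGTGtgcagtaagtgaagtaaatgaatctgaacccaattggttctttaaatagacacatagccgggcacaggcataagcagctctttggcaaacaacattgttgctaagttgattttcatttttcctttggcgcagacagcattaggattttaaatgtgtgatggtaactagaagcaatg
Atg14: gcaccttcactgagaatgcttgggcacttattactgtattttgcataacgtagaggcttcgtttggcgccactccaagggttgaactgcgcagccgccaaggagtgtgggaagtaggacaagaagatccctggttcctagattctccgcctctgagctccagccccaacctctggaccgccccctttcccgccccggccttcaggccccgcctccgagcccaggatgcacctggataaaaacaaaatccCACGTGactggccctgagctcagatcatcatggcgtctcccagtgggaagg

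In Atg3 the 2 E-boxes begin 94 and 71 bases before the RefSeq start, in Atg5 the site begins 14 bases before it and in Atg14 1 base before it. The Atg7 window belongs to a RefSeq start inside the deposited gene, which begins upstream at base 114643097. A match is a string of letters and not a measured site.

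Levels of the members spanned a wide range, and the ATG8 proteins and p62 made up most of it. Levels between genes are compared here as FPKM, fragments scaled by transcript length and library size, as deposited. Gabarapl2 had the highest mean, 388 ± 62 FPKM (SD, n = 12 libraries), followed by Map1lc3b (LC3B) at 364 ± 46.8 and Sqstm1 (p62) at 357 ± 28.5. The order of these 3 was not stable between libraries: Gabarapl2 was the highest member in 6 libraries, Sqstm1 in 4 and Map1lc3b in 2. Gabarap at 255 ± 34.8 FPKM and Map1lc3a (LC3A) at 242 ± 48.4 came next, Gabarap being the higher of the pair in 10 of 12 libraries. Gabarapl1, at 113 ± 31.2 FPKM, was the lowest of the 5 ATG8 genes, below Map1lc3a in 12 of 12 libraries. As a share of the summed FPKM of all 38 members, the 5 ATG8 genes held 55.0% ± 3.45 (50% to 59.7% over the libraries) and the 6 receptors 21.1% ± 1.78.

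The enzymes and complexes that act before the ATG8 proteins were expressed at lower levels, although Becn1 was above Gabarapl1 in 6 of 12 libraries. The 6 conjugation enzymes held 6.37% ± 0.405 of the summed FPKM, the 6 members of the class III PI3-kinase complex 6.07% ± 1.07, the 6 membrane supply members 4.69% ± 0.536, the 5 of the ULK1 complex 4.37% ± 0.709 and the 4 ATG4 proteases 2.43% ± 0.465. Within the roles, the highest members were Becn1 (Beclin 1, scaffold of the PI3-kinase complex) at 95.6 ± 25.8 FPKM, Atg3 (the E2-like enzyme of ATG8 lipidation) at 59.8 ± 9.54, Atg101 (a stabilizing subunit of the ULK1 complex) at 51.2 ± 13.6, Wdr45 (WIPI4) at 36.2 ± 9.12 and Atg4b (the main ATG8-processing protease) at 25.4 ± 8.59. Over the libraries Becn1 ran from 56.6 to 138 FPKM with a median of 91.5, Atg3 from 45.8 to 80.2 with a median of 57.7, Wdr45 from 23.1 to 53.8 with a median of 33.7 and Gabarapl2 from 291 to 461 with a median of 393. The lowest means were the lipid transfer gene Atg2a at 5.50 ± 2.10 FPKM, Pik3r4 (the regulatory subunit VPS15) at 5.91 ± 1.57 and Atg2b at 6.04 ± 1.23. Of the 38, 33 lay above the median FPKM of all genes tested, with a median percentile of 75.0 and a range from 44.8 to 98.7.

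Between paralogues the data separated some pairs and not others. Ulk1, the initiating kinase, was at 17.7 ± 4.26 FPKM and above its paralogue Ulk2 (12.8 ± 3.05) in 11 of 12 libraries. Wipi1 at 24 ± 5.90 and Wipi2 at 23.8 ± 4.95 FPKM were each the higher in 6 libraries, and Atg2b exceeded Atg2a in 8 of 12. Atg4b exceeded Atg4c (6.35 ± 2.32 FPKM) in 12 of 12 libraries without any overlap of their ranges, and exceeded Atg4d (10.2 ± 4.92 FPKM) in 12 of 12 although their ranges overlapped. Among the receptors, Tax1bp1 (77.0 ± 16.6 FPKM) was above Tollip (41.1 ± 8.16 FPKM) in 12 of 12.

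**Figure D1:**
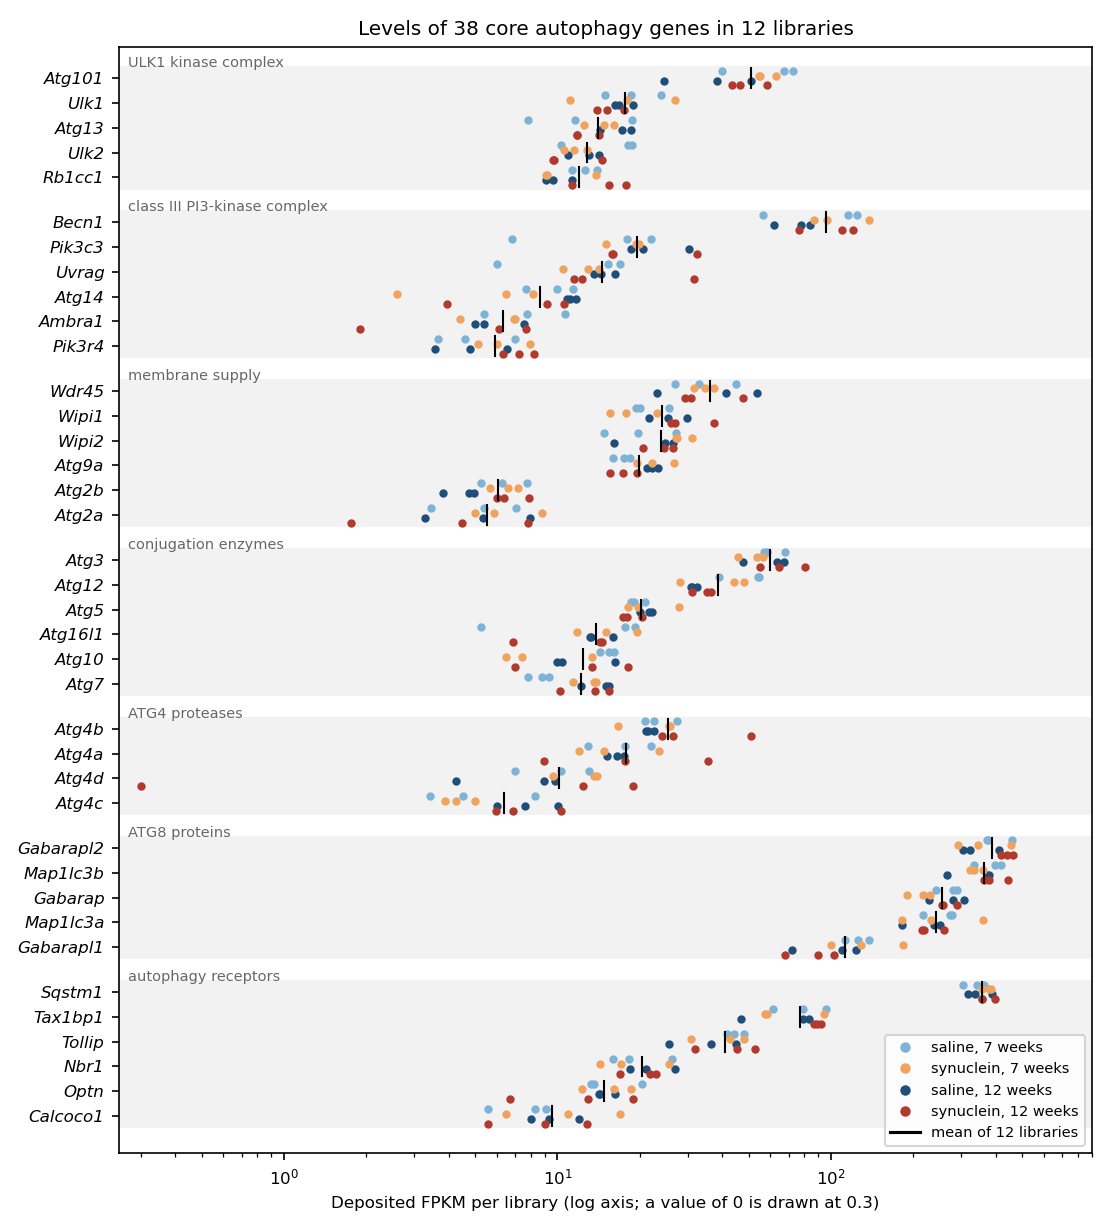
Deposited FPKM of the 38 members in each of the 12 libraries, on a log axis, grouped by role; colours give the group and the black bar the mean of 12 libraries. The means of the 5 ATG8 genes and of Sqstm1 lie to the right of all others, and the single point at 0 is Atg4d in replicate 2 of synuclein at 12 weeks.

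Some of these rows carry limits of the deposited gene models. The row named Atg4a spans chromosome 3, 103575282 to 103646068, and was deposited as 1 locus with Syt6. GENCODE release M21 places Atg4a-ps there, overlapping Syt6, whereas it places Atg4a itself on chromosome X, 140956907 to 141164270. The Atg4a transcript was 99.3% identical to Atg4a-ps over 2115 of 2202 bases, so the value printed under this name (17.8 ± 6.83 FPKM) is uncertain. Gabarapl2 had 3 processed pseudogenes with 96.6% to 99.4% identity over 349 to 352 of its 1677 transcript bases, and Uvrag, a subunit of the PI3-kinase complex that acts late, shared stretches of 342 to 345 bases with 6 other genes. Becn1 was deposited as 1 locus with Cntd1, Atg4d with Kri1, Gabarapl1 with 1700101I11Rik, Atg5 with Mir1929 and Atg16l1 with Scarna6, and reads in such overlaps could not be separated here.

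The first comparison asked what fibrils had changed after 7 weeks, and no member passed the test. EdgeR's quasi-likelihood test with Benjamini-Hochberg adjustment over 17380 genes called 0 of 38 members and 0% of all genes, and at an unadjusted p under 0.05 it had 0 members, against 1.64% of all genes. DESeq2, limma-voom and limma on log2(FPKM + 1) also called 0 members in this and in each other comparison. Log2 fold changes ran from −0.75 to 0.58, and 16 members were higher and 22 lower after synuclein, the median being −0.03 (0.01 over all genes tested). That median was −0.15 without replicate 1 of saline and 0.09 without replicate 3 of saline. The groups of 3 libraries did not overlap for 5 members, which is 2 higher and 3 lower, against 8.45% of all genes. The 2 higher were Atg7 and Atg9a, and the 3 lower were Atg3, Atg10 and Gabarap.

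Atg7 (chromosome 6, 114643097 to 114860614), the E1-like enzyme that activates both ubiquitin-like systems, had the smallest unadjusted p at 7 weeks. It was at 28.9, 33.2 and 34.7 CPM after saline and at 50.9, 51.5 and 42.6 CPM after synuclein. Each synuclein library lay above each saline library, a log2 fold of 0.58 ± 0.28 (SE) with a 95% interval from −0.02 to 1.18 (edgeR unadjusted p = 0.0556, adjusted p = 1.0). Wipi2 (chromosome 5, 142629584 to 142669370), the PI3P reader that recruits ATG16L1, was at 57.0, 76.7 and 105 CPM after saline and at 106, 104 and 119 after synuclein. The saline libraries were spread widely and the highest of them reached the synuclein range; the log2 fold was 0.47 ± 0.27 (edgeR adjusted p = 1.0). Without replicate 1 of saline, the lowest library, it was 0.28, and without replicate 3 of saline it was 0.73.

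Gabarap, an ATG8 protein, was at 256 ± 23.1 CPM after saline and 202 ± 21.1 after synuclein at 7 weeks (SD, n = 3), a log2 fold of −0.34 ± 0.21. Atg3 was at 115 ± 10.7 and 97.6 ± 10.9 CPM, a log2 fold of −0.23 ± 0.24. Atg10, the E2-like enzyme for ATG12, was at 22.4 ± 1.36 and 13.3 ± 5.54 CPM, a log2 fold of −0.75 ± 0.48. These 3 are named because their groups did not overlap and were chosen after their values were seen; none passed the test (edgeR adjusted p = 1.0 for each). Each role held members on both sides of 0 at 7 weeks and again at 12 weeks. Of the 4 members with an E-box window, Atg7 and Atg5 (0.16 ± 0.28) were higher, Atg3 and Atg14 (−0.75 ± 0.44) lower. None of these folds passed the test, and the part of the E-box in them was not tested.

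The same question was then put at 12 weeks. EdgeR called 0 of 38 members and 0% of all genes, with 0 members at an unadjusted p under 0.05, against 5.57% of all genes. Log2 folds ran from −0.55 to 0.60, with 20 members higher and 18 lower and a median of 0.02 (−0.04 over all genes tested). Groups did not overlap for 6 members, 2 higher (Atg2b and Atg4b) and 4 lower (Atg5, Atg9a, Atg13 and Atg14), against 10.7% of all genes.

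Atg2b (chromosome 12, 105613540 to 105685241), which transfers lipid into the growing membrane, had the smallest unadjusted p at 12 weeks. It was at 51.9, 49.0 and 39.9 CPM after saline and at 65.4, 78.4 and 61.5 CPM after synuclein. All 3 synuclein libraries were above all 3 saline libraries, a log2 fold of 0.54 ± 0.26 with an interval from −0.00 to 1.09 (edgeR unadjusted p = 0.0505, adjusted p = 0.887). The 7-week libraries of both treatments, 54.8 to 80.4 CPM, lay in the range of the 12-week synuclein libraries or near it, so that the 12-week saline group was the one that sat low.

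Rb1cc1 (FIP200, the scaffold of the ULK1 complex; chromosome 1, 6214662 to 6276104) was at 65.5, 68.1 and 80.4 CPM after saline and at 79.3, 121 and 109 CPM after synuclein at 12 weeks. The groups met at 80.4 and 79.3 CPM, and the log2 fold was 0.53 ± 0.26 (edgeR adjusted p = 0.887). Atg4b (chromosome 1, 93755033 to 93789529) was at 61.2, 64.1 and 61.4 CPM after saline and at 74.5, 140 and 68.3 CPM after synuclein. Its log2 fold of 0.60 ± 0.29 (edgeR adjusted p = 0.889) leaned on replicate 2 of synuclein, the library that stood apart, and was 0.22 without it.

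Sqstm1 (chromosome 11, 50200152 to 50210820), the p62 receptor that carries ubiquitin-tagged aggregates and is itself degraded by autophagy, varied least among the members. It was at 563, 677 and 640 CPM after saline and at 673, 705 and 716 after synuclein at 7 weeks, and at 633, 587 and 719 after saline and at 655, 638 and 733 after synuclein at 12 weeks. The treatments overlapped at both times, at 7 weeks only between 673 and 677 CPM. The log2 fold of synuclein against saline was 0.16 ± 0.20 at 7 weeks, with an interval from −0.26 to 0.57, and 0.06 ± 0.20 at 12 weeks, with an interval from −0.35 to 0.48 (edgeR adjusted p = 1.0 and 0.978). Its SD within groups was 0.12 on the log2 scale, against a median of 0.35 over the members and of 0.60 over all genes tested.

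**Figure D2:**
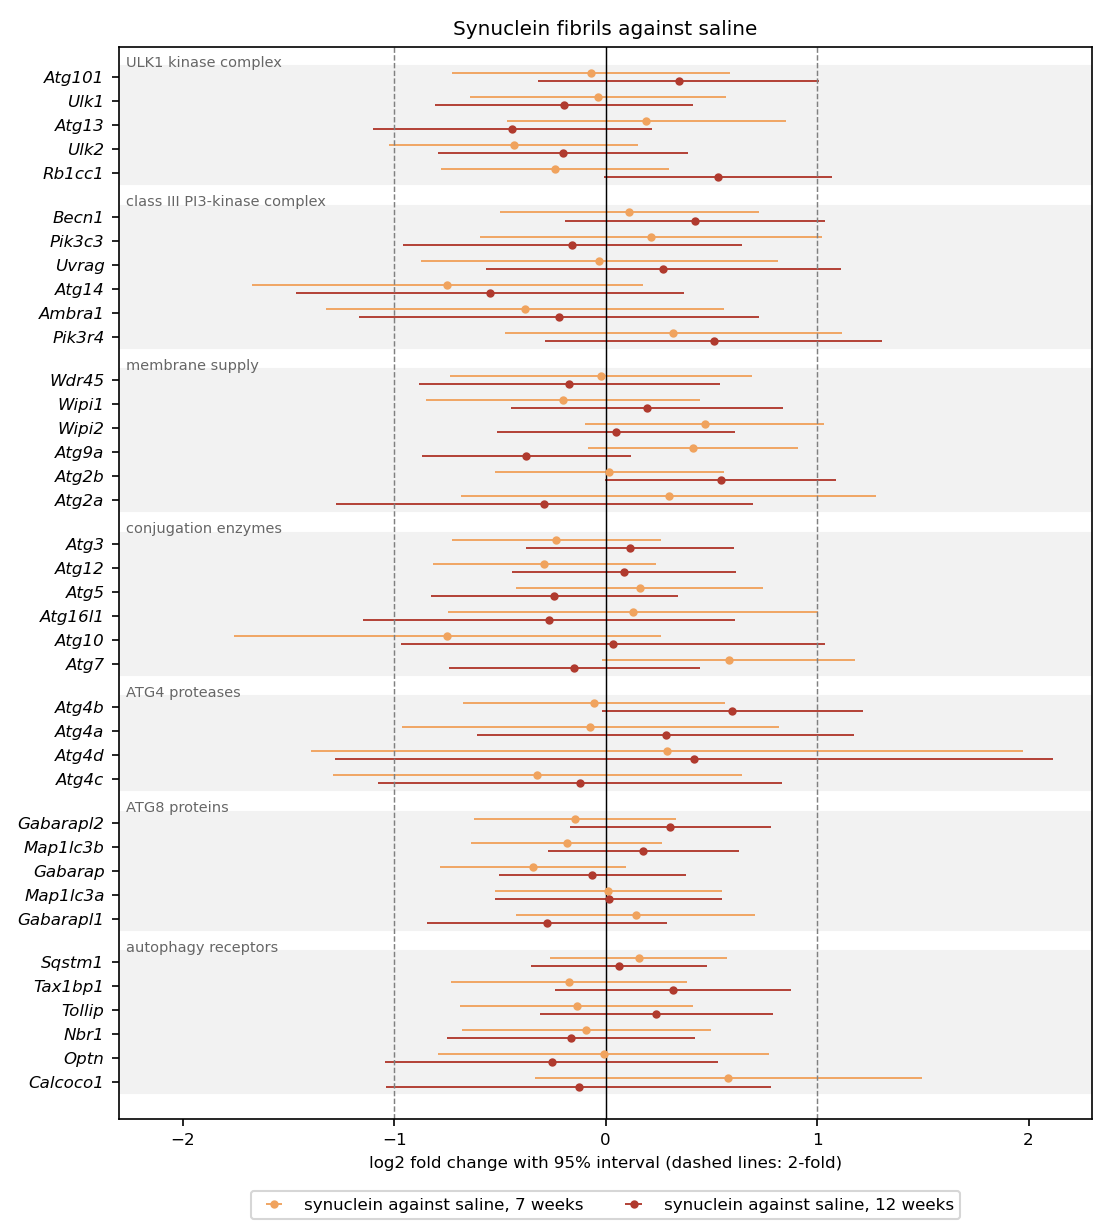
Log2 fold change of synuclein against saline for each member at 7 weeks (orange) and 12 weeks (red), with 95% intervals; dashed lines mark a 2-fold change. Every interval at either time includes 0, and the widest are those of Atg4d.

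The precision of the folds differed between members. At 7 weeks the 95% interval lay within a 2-fold change in either direction for 25 of 38 members, against 29.8% of all genes tested, and at 12 weeks for 20, against 25.5%. The members are expressed above most genes and had a median standard error of 0.29 in these comparisons, where all genes tested had 0.53. Over the 4 comparisons between pairs of groups, 13 members were bounded in this way in every one. They were Ulk1, Atg9a, Wdr45, Atg3, Atg5, Map1lc3a, Map1lc3b, Gabarap, Gabarapl2, Sqstm1, Nbr1, Tax1bp1 and Tollip. Another 7 members were bounded in 0 of 4: Ambra1, Atg14, Atg2a, Atg4c, Atg4d, Atg10 and the receptor Calcoco1. For these the interval reached past a 2-fold change in at least 1 direction in all 4, so such a change was not excluded.

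Averaged over both times, synuclein against saline gave 0 members called (0% of all genes) and 0 members at an unadjusted p under 0.05 by edgeR, against 2.48% of all genes. Higher were 20 members and lower 18, at a median of 0.01, and groups of 6 libraries overlapped for every member (0.0748% of all genes did not). The interval lay within 2-fold for 35 of 38 members, against 48.2% of all genes.

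Atg14 (chromosome 14, 47540893 to 47568434), the subunit that directs the PI3-kinase complex to autophagy, had the smallest unadjusted p in that average. It was at 25.8, 38.7 and 33.6 CPM after saline and at 22.0, 8.87 and 27.4 after synuclein at 7 weeks, and at 38, 36.2 and 39.6 after saline and at 13, 34.3 and 30.6 after synuclein at 12 weeks. The 2 lowest values were 1 synuclein library at each time, while the 12-week saline libraries were tightly grouped and above all 3 synuclein libraries. The log2 fold over both times was −0.65 ± 0.31, with an interval from −1.3 to 0.00 (edgeR unadjusted p = 0.0511, adjusted p = 1.0). Ulk2 followed at −0.32 ± 0.20 and Pik3r4 at 0.42 ± 0.27 (edgeR adjusted p = 1.0 for each), and without replicates 1 and 2 of synuclein at 12 weeks the Ulk2 fold was −0.13.

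Next, 12 weeks was compared with 7 weeks within saline, which asks what differs between the times when no fibrils were given. The libraries of the times are separate sets. Time after injection therefore cannot be told apart from the age of the mice or any difference in collection or library preparation. EdgeR called 0 of 38 members and 0% of all genes. At an unadjusted p under 0.05 it had 2 members, Atg12 and Atg7, against 7.42% of all genes. At 12 weeks 16 members were higher and 22 lower, and their median was −0.06 (0.01 over all genes). Groups did not overlap for 4 members, Atg7 and Atg9a higher and Atg12 and Atg2b lower, against 16.2% of all genes, and intervals lay within 2-fold for 23 members, against 22.9%.

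Atg12 (chromosome 18, 46732417 to 46741579), the ubiquitin-like protein joined to ATG5, was at 128, 93.2 and 130 CPM at 7 weeks and at 74.2, 76.7 and 74.1 CPM at 12 weeks in saline. The 12-week libraries were close to each other and below all the 7-week ones, a log2 fold of −0.64 ± 0.25 (edgeR unadjusted p = 0.0204, adjusted p = 0.537). After synuclein it was at 106, 114 and 66.9 CPM at 7 weeks and at 85.5, 70.8 and 83.0 CPM at 12 weeks, overlapping groups with a log2 fold of −0.26 ± 0.25. Atg7 was at 57.7, 55.6 and 45.4 CPM in saline at 12 weeks, above its 7-week saline libraries by a log2 fold of 0.71 ± 0.28 (edgeR unadjusted p = 0.0222, adjusted p = 0.555). The 7-week saline group is thus the low one for Atg7 in both comparisons that use it, and those comparisons share these 3 libraries. Atg101 (chromosome 15, 101284301 to 101290934) was at 42.4, 71.8 and 77.2 CPM at 7 weeks and at 26.4, 40.2 and 54.3 CPM at 12 weeks. Its log2 fold of −0.66 ± 0.32 (edgeR adjusted p = 0.676) was −0.40 without replicate 1 of saline at 12 weeks.

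Within synuclein, 12 against 7 weeks gave 0 of 38 members and 0% of all genes called by edgeR. At an unadjusted p under 0.05 it had 1 member, Gabarapl1, against 7.58% of all genes. Of the members 18 were higher and 20 lower, and their median was −0.01 (−0.06 over all genes). Groups did not overlap for 7 members, against 12.3% of all genes, and intervals lay within 2-fold for 23, against 24.5%. Higher were Atg4c, Gabarap, Map1lc3b and Wipi1, and lower were Atg9a, Gabarapl1 and Wipi2.

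Gabarapl1 (chromosome 6, 129532184 to 129542331), the ATG8 gene known for high expression in brain, was at 302, 209 and 163 CPM at 7 weeks and at 108, 159 and 144 CPM at 12 weeks after synuclein. The groups came close, at 163 and 159 CPM, and the log2 fold was −0.71 ± 0.27 with an interval from −1.28 to −0.15 (edgeR unadjusted p = 0.0166, adjusted p = 0.534). Without replicate 1 of synuclein at 7 weeks, the highest library, it was −0.42. After saline it was at 223, 184 and 204 CPM at 7 weeks and at 204, 116 and 179 CPM at 12 weeks, with a log2 fold of −0.29 ± 0.27. The other 4 ATG8 genes had folds from −0.19 to 0.29 in synuclein and from −0.22 to 0.01 in saline.

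Wipi1 (chromosome 11, 109573521 to 109611389), a PI3P-binding protein of the forming membrane, was at 30.1, 26.0 and 38.6 CPM at 7 weeks and at 44.3, 60.1 and 42.8 CPM at 12 weeks after synuclein. Each 12-week library was above each 7-week one, a log2 fold of 0.64 ± 0.31 (edgeR adjusted p = 0.667). Atg4b was at 48.3, 74.1 and 73.4 CPM at 7 weeks, and its log2 fold to 12 weeks was 0.53 ± 0.29 (edgeR adjusted p = 0.728), or 0.16 without replicate 2 of synuclein at 12 weeks.

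**Figure D3:**
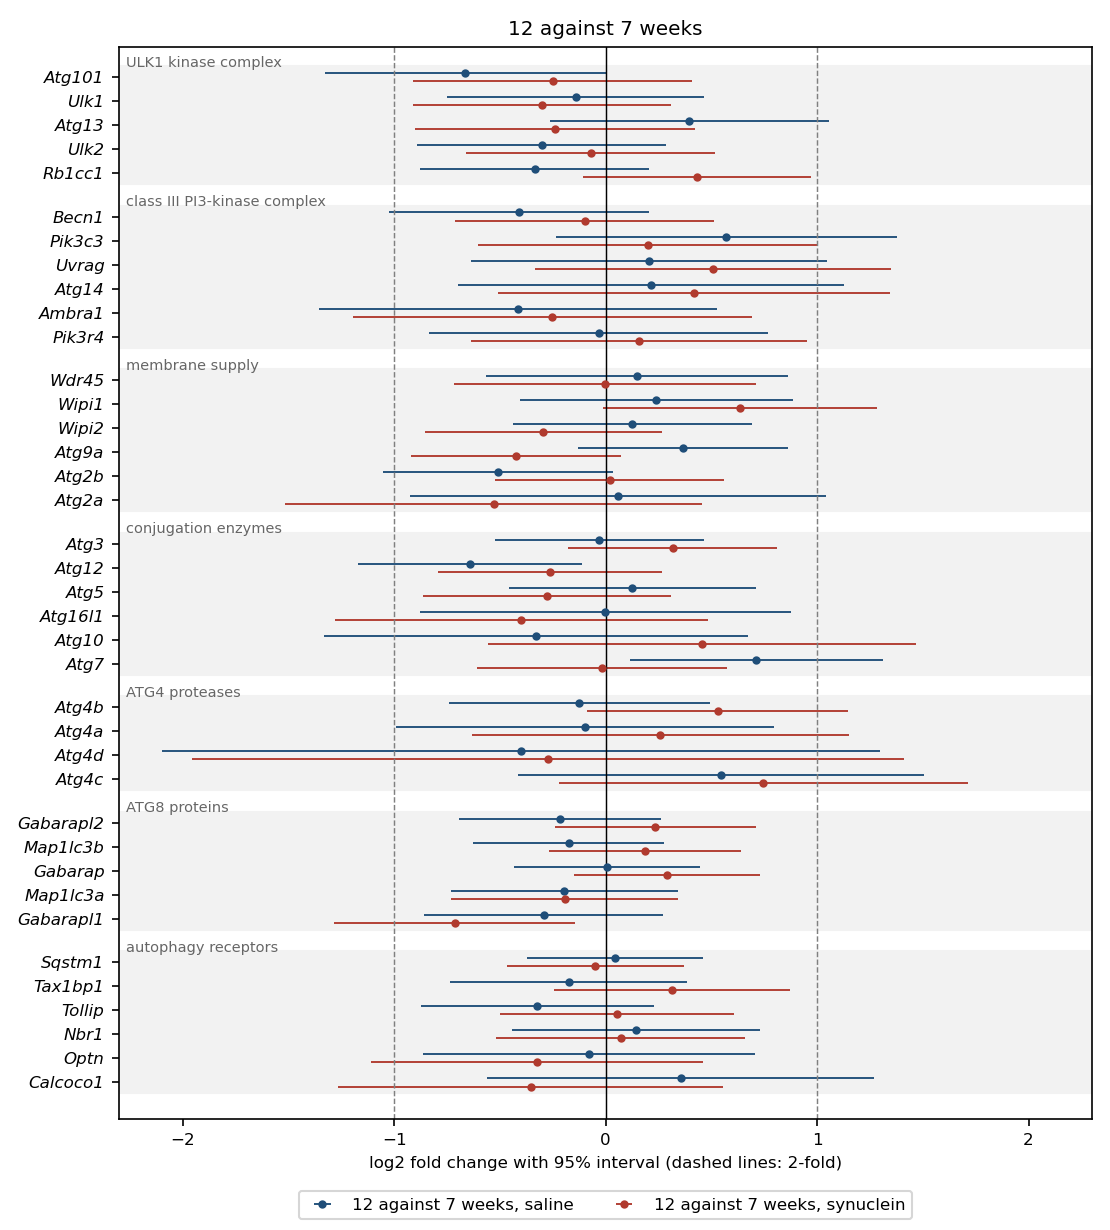
Log2 fold change of 12 against 7 weeks for each member in saline (blue) and synuclein (red), with 95% intervals; dashed lines mark a 2-fold change. The intervals of Atg12 and Atg7 in saline and of Gabarapl1 in synuclein leave 0 out, and none of these passed the adjusted test.

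Over both treatments together, with 6 libraries at each time, edgeR called 0 of 38 members. It called 145 of 17380 genes, 0.834%, a share too small for a count of 0 among the members to set them apart. At an unadjusted p under 0.05 it had 2 members, Gabarapl1 and Atg12, against 9.82% of all genes. Gabarapl1 was at −0.50 ± 0.19 (edgeR unadjusted p = 0.0166, adjusted p = 0.323), Atg12 at −0.45 ± 0.18 (0.0205 and 0.35) and Atg101 at −0.46 ± 0.22 (edgeR adjusted p = 0.533). Higher were 20 members and lower 18, at a median of 0.00. Groups overlapped for every member (0.944% of all genes did not), and the interval lay within 2-fold for 36 of 38, against 42.8%. This contrast uses the same libraries as the 2 comparisons before it.

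Marker lists of cell types were compared over the same interval, with both treatments together. All 10 oligodendrocyte markers were higher at 12 weeks, 6 of them called by edgeR, and their sum was 16760 to 26018 CPM in the 7-week libraries and 25815 to 44749 CPM in the 12-week ones. All 8 pan-neuronal markers were lower, 2 of them called by edgeR, with sums of 899 to 2338 CPM at 7 weeks and of 503 to 833 CPM at 12 weeks. All 9 dopaminergic markers tested were lower, 2 of them called, with sums of 720 to 2489 CPM and of 604 to 1122 CPM. Of the other lists, all 5 ependymal markers were higher at 12 weeks (median log2 fold 2.61), with sums of 5.15 to 38.9 CPM at 7 weeks and of 7.95 to 446 CPM at 12 weeks. All 8 microglia markers (median −0.82) and all 6 endothelial markers (−0.31) were lower, and none of these 3 lists held a called marker. Of the 4 oligodendrocyte precursor markers 2 were higher and 2 lower, and edgeR called 1 as higher. Their sums were 87.2 to 180 CPM at 7 weeks and 142 to 280 CPM at 12 weeks. The astrocyte, pericyte and erythroid lists held no called marker. Replicate 1 of synuclein at 7 weeks had the highest Gabarapl1 and the highest pan-neuronal sum, 2338 CPM. The lowest Gabarapl1, 108 CPM, was in replicate 1 of synuclein at 12 weeks, with a pan-neuronal sum of 543 CPM. Replicate 3 of saline at 12 weeks had the lowest sum, 503 CPM, with Gabarapl1 at 179 CPM. Replicate 3 of synuclein at 7 weeks had a sum of 899 CPM and Gabarapl1 at 163 CPM. Lmx1b, a transcription factor of the dopaminergic lineage, was at 0 in 4 libraries and was not tested. The part of these mixtures in the time differences of Gabarapl1, Atg12 and Atg101 was not tested.

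**Figure D4:**
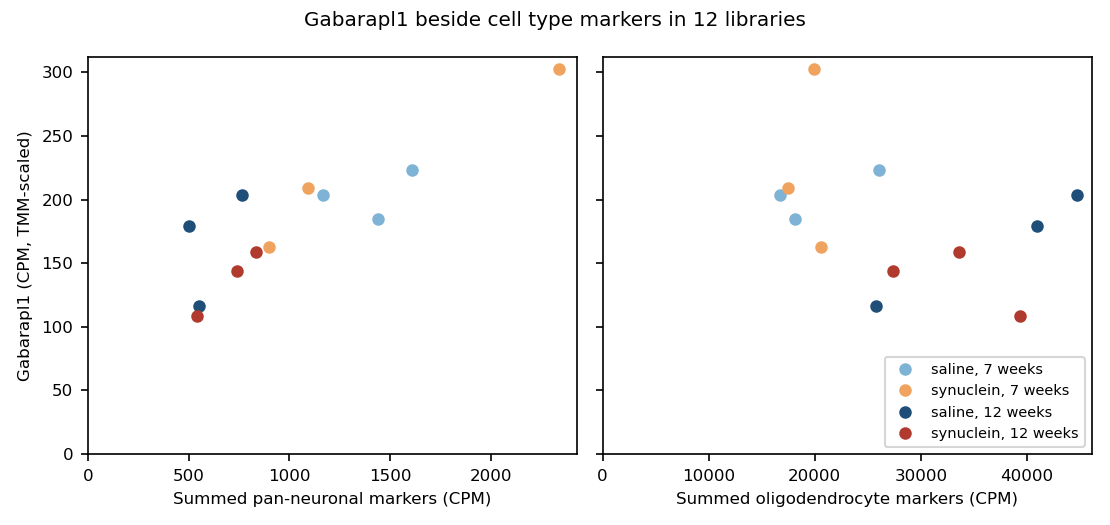
Gabarapl1 level (CPM) in each of the 12 libraries against the summed CPM of 8 pan-neuronal markers (left) and of 10 oligodendrocyte markers (right), coloured by group. The 12-week libraries lie at 503 to 833 CPM of neuronal markers and the 7-week libraries at 899 to 2338 CPM. The library with the most Gabarapl1 is also the one with the most neuronal marker RNA. The one with the least Gabarapl1, replicate 1 of synuclein at 12 weeks at 108 CPM, has 543 CPM of neuronal markers. The library with the least neuronal marker RNA, replicate 3 of saline at 12 weeks, has Gabarapl1 at 179 CPM. That is above replicate 3 of synuclein at 7 weeks, at 163 CPM.

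Whether the effect of synuclein differed between the times was tested as an interaction (12-week effect minus 7-week effect). In that contrast 8 of 8 microglia markers were below 0 (median −1.57) and 6 of 6 endothelial markers above it (0.63), none past the adjusted test, and their part in the members' differences was not tested. EdgeR called 0 of 38 members and 0% of all genes. At an unadjusted p under 0.05 it had 2 members, Atg9a and Rb1cc1, against 4.49% of all genes. The median difference was 0.20, where all genes had −0.05, with 23 members above 0 and 15 below. Its value depended on the scaling: with upper quartile scaling it was 0.06, and the median of all genes, moved by −0.13, was −0.18. The members' median was thus above that of all genes with either scaling. Only 4 members had an interval within 2-fold, against 7.24% of all genes, and the median standard error of these differences was 0.41.

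Atg9a (chromosome 1, 75180861 to 75192010), the scramblase whose vesicles seed the autophagosome, had the smallest unadjusted p of that contrast. It was at 69.3, 73.0 and 63.4 CPM after saline and at 78.4, 107 and 88.3 CPM after synuclein at 7 weeks. At 12 weeks it was at 93.1, 87.5 and 84.4 CPM after saline and at 77.0, 58.4 and 68.9 CPM after synuclein. The synuclein libraries were thus all above saline at 7 weeks and all below it at 12 weeks, and groups did not overlap in any of the 4 comparisons between pairs of groups, which share these libraries. The log2 fold was 0.41 ± 0.24 at 7 weeks and −0.38 ± 0.24 at 12 weeks, a difference of −0.79 ± 0.33 with an interval from −1.49 to −0.09 (edgeR unadjusted p = 0.0292, adjusted p = 0.952). The SD within groups was 0.16 on the log2 scale, among the smallest of the members.

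Rb1cc1 had the opposite order. It was at 99.3, 90.6 and 80.4 CPM after saline and at 65.1, 98.7 and 65.1 CPM after synuclein at 7 weeks, overlapping groups with a log2 fold of −0.24 ± 0.26. With the 12-week fold of 0.53 given above, the difference was 0.77 ± 0.36 (edgeR unadjusted p = 0.0483, adjusted p = 0.952). Atg7 differed by −0.73 ± 0.40 (edgeR adjusted p = 0.952), and at 12 weeks its synuclein libraries, at 57.3, 48.5 and 37.4 CPM, overlapped saline with a log2 fold of −0.15 ± 0.28.

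**Figure D5:**
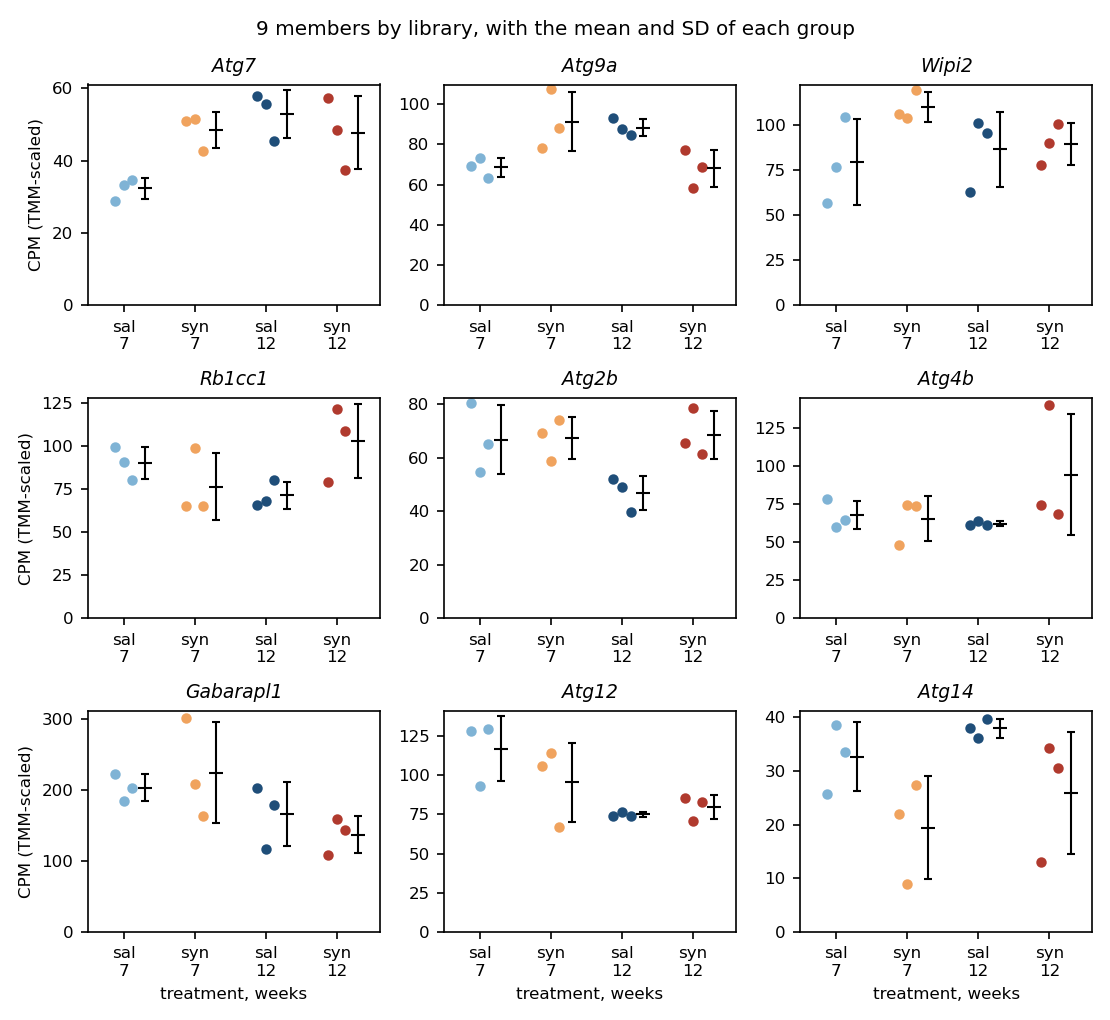
CPM of 9 members in each library by group (sal, saline; syn, synuclein; 7 or 12 weeks), with the group mean and SD (n = 3) in black. Atg9a is higher after synuclein at 7 weeks and lower at 12 weeks, Atg7 is lowest in saline at 7 weeks, and Atg4b has 1 library at 140 CPM.

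The members also differed in how they varied between libraries. The SD within groups on the log2 scale was at or below the median of all genes for 34 of 38, and the level of most members was above the median too. After Sqstm1, the steadiest were Gabarap, Atg9a, Atg5, Map1lc3b and Atg7, with SDs from 0.16 to 0.21. The most variable was Atg4d, a protease of the ATG4 family, at 1.87, because it was at 0 CPM in replicate 2 of synuclein at 12 weeks and at 12.8 to 54.7 CPM in the others. The same library had the highest values of Uvrag (101 CPM) and Atg4a (67.2 CPM) and the lowest of Ambra1 (9.05 CPM), which binds Beclin 1. It was the highest library for 8 members and the lowest for 5, or 21.1% and 13.2% of members, where 15.1% and 25.0% of all genes tested were highest and lowest there. Replicate 1 of saline at 7 weeks was the lowest library for 8 members, among them Becn1, Pik3c3, Atg16l1 and Uvrag. That is 21.1% of members, where 9.21% of all genes tested were lowest there.

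Around the core, 80 genes of neighbouring steps were examined in 6 lists, and 79 were tested (Foxo3 was not). None passed edgeR's adjusted test in any of the 7 comparisons, and the numbers at an unadjusted p under 0.05 are set beside the share of all genes. They were 1 of 79 at 7 weeks (1.64% of all genes), 4 at 12 weeks (5.57%), 9 with time in saline (7.42%), 9 in synuclein (7.58%), 9 over both treatments (9.82%), 2 for the interaction (4.49%) and 2 for synuclein over both times (2.48%). The medians over the 79 genes lay between −0.02 and 0.09. The values that follow are for the 2 genes of each list with the smallest p in the comparison of 12 with 7 weeks over both treatments, and none of them passed. Sesn1 (Sestrin 1, a stress-induced inhibitor of mTORC1) was at 98.9 ± 39.4 CPM in saline and 100.2 ± 7.54 in synuclein at 7 weeks, and at 51.2 ± 3.82 and 60.9 ± 11.0 at 12 weeks (SD, n = 3), a log2 fold of −0.83 ± 0.21 (edgeR adjusted p = 0.0714).

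Vps33a, a subunit of the HOPS complex that tethers autophagosomes to lysosomes, was at 32.6 ± 9.25 and 38.6 ± 5.27 CPM at 7 weeks and at 55.3 ± 8.14 and 65.4 ± 3.54 at 12 weeks, a log2 fold of 0.76 ± 0.21 (edgeR adjusted p = 0.1). Its partner Vps16 was at −0.46 ± 0.26. Deptor, an inhibitory subunit of the mTOR complexes, was at 0.80 ± 0.25 and Vmp1, a membrane protein of autophagosome formation, at 0.63 ± 0.20 (edgeR adjusted p = 0.171 and 0.176). Among mitophagy genes, the deubiquitinase gene Usp30 was at 0.64 ± 0.22 and Fbxo7, a Parkinson's disease gene, at 0.61 ± 0.21 (edgeR adjusted p = 0.243 and 0.252). The transcription factor genes Atf4 and Tfe3 were at −0.37 ± 0.19 and 0.43 ± 0.32. Trp53inp1, a p53 target that binds ATG8 proteins, was at −1.02 ± 0.47, and the endoplasmic reticulum receptor genes Fam134b and Ccpg1 were at 0.43 ± 0.22 and −0.31 ± 0.18.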

How the data were processed

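RNA of sorted cells was measured in 12 libraries, 3 in each of 4 groups named by their titles. Per the submitters' processing notes, the tools were TopHat2 2.0.13, Bowtie2 2.2.3 and Cufflinks 2.2.1. The authors deposited estimated counts and FPKM per gene and library; no label or header read here names the build, and 95.7% of gene names were found in GENCODE M21 (GRCm38), so coordinates are as deposited, counted from 1. The deposited estimated counts had been scaled: 98.7% to 98.9% of values per library were whole multiples, within 0.02, of a step of 0.685 to 1.30.

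Estimated counts were rounded and tested with edgeR 4.0.16 under R 4.3.3 (filterByExpr with a minimum count of 10, TMM, quasi-likelihood fit with 1 mean per group, 12 libraries, 8 residual degrees of freedom). P-values were adjusted within each of 7 comparisons over 17380 genes, with a threshold of 0.05. The SE of a fold is the absolute log2 fold divided by the square root of edgeR's F statistic. The 95% intervals are the fold ± the t quantile times this SE, at edgeR's total degrees of freedom and not the 8 residual ones. FPKM served for levels between genes and for limma 3.58.1 with a pseudocount of 1, and DESeq2 1.42.0 was an alternative. The rule named the 3 members with the smallest p in each comparison and the member with the highest FPKM in each role. The members and lists were chosen with earlier results of these data known.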

Additional observations from a re-analysis of the deposited data

How the results depend on the processing

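Over 22 or 23 other settings per comparison, the number of members called stayed at 0, and the smallest adjusted p of a named member was 0.166 (Atg7, 12 against 7 weeks in saline). No fold of a named member changed its sign or its side of the threshold. The counts over all genes moved more. DESeq2 called 12 genes at 12 weeks, 165 with time in saline, 82 with time in synuclein, 468 with time over both treatments and 3 for synuclein over both times. Limma on log2(FPKM + 1) called 1 gene at 12 weeks, 1 with time in saline, 1 in the interaction and 5 with time over both. With time in saline, 7 genes were called with no filter and 49 with only the groups compared. Without replicates 1 and 2 of synuclein at 12 weeks together, 14 were called with time in saline and 0 with time over both.

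Leaving out 1 library at a time gave 0 to 1 genes called for synuclein at 7 weeks, at 12 weeks and over both times, 0 to 9 with time in saline, 0 to 2 with time in synuclein and 24 to 214 with time over both; the lowest was without replicate 3 of saline at 7 weeks. Whether replicate numbers pair the libraries stayed undecided, because low correlations of deviations from means of 3 libraries cannot exclude it. Of 18 pairs with the same number, 1 had a correlation over 0.1 (range −0.0596 to 0.11). Their median was 0.0354, against −0.0274 for pairs with different numbers, and 5 libraries correlated best with their own number. With the replicate block, 34 genes were called with time in saline, 246 with time over both and 0 members in any comparison. With 3 libraries per group, spread and depth limit what can be seen. Spread did so most for Atg4d, which had the largest standard error in each comparison. It was at 0 CPM in replicate 2 of synuclein at 12 weeks.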
